A study of Homo sapiens with 12 samples.

Results

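NTS encodes the precursor of neurotensin, a peptide of brain and gut, and CALB1 encodes calbindin, a protein that binds calcium in the cytosol. Both were examined in the human embryonal carcinoma lines 2102Ep and NTera-2 after an siRNA against SOX2 (siSOX2), because each of these genes moved one way in one line and the other way in the other line. They are 2 of the 18404 genes measured on Affymetrix Human Gene 1.0 ST arrays, and 2 of the 32321 probe sets are annotated to them, 1 each. Their values are log2 signals, so a difference of 1 is a change of 2-fold.

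The 4 groups were 2102Ep siSOX2, 2102Ep control, NTera-2 siSOX2 and NTera-2 control, with 3 arrays each. The controls received the non-targeting Silencer Select Negative Control #1. Transfection lasted 6 hours and RNA was taken after a further 72 hours in growth medium. The lipid was Lipofectamine 2000 in 2102Ep (passages 35 to 50) and Lipofectamine RNAiMAX in NTera-2 (passages 40 to 50), and per the study's methods the siRNA dose also differed. Line, reagent and dose therefore cannot be told apart in any comparison of the lines. The depth of the SOX2 knock-down, given below, differed between the lines too and cannot be told apart from them. A single siRNA against SOX2 was used, so its effects on other transcripts and the loss of SOX2 cannot be told apart either. In RNA from whole cultures, fewer cells that express a gene and less RNA per cell cannot be told apart.

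SOX2 mRNA itself was at 8.80 to 9.30 in 2102Ep siSOX2, against 12.20 to 12.28 in 2102Ep control, and at 11.86 to 11.95 in NTera-2 siSOX2, against 12.51 to 12.63 in NTera-2 control. On the arrays the knock-down of the mRNA was thus unequal, with 11.4% of the control signal left in 2102Ep and 64.0% in NTera-2. By qRT-PCR the study found less SOX2 mRNA left in each line than these signals show, and again more in NTera-2. By Western blot the study detected no SOX2 protein after siSOX2 in either line. Arrays of a group correlated at 0.983 to 0.994 over probe sets and array medians lay between 7.43 and 7.58. All 9 embryonal carcinoma markers measured, among them LIN28A, SALL4 and DPPA4, lay above the median gene. POU5F1 and NANOG were not analysed here. Of 11 neuron and neuroendocrine markers 3 lay above the median gene, and 0 of them were called after siSOX2 in limma (3 in 2102Ep and 4 in NTera-2 had an unadjusted p under 0.05). The share of all genes at that cut was not counted, so nothing is read from such counts. Of all genes 1.15% were called higher and 0.826% lower in 2102Ep, and 0.31% and 0.348% in NTera-2. Nothing is therefore read from 0 calls or 1 call in a short marker list either. The summed linear signal of the 11 neuron and neuroendocrine markers was 2062 to 2195 in 2102Ep siSOX2, against 2298 to 2578 in 2102Ep control. It was 2889 to 3187 in NTera-2 siSOX2, against 2835 to 2986 in NTera-2 control. Members moved apart, since ELAVL3 (-0.57) and NEFL (-0.55) fell in 2102Ep while NEFM rose in both lines (0.49 and 0.58). The list median was -0.12 in 2102Ep and 0.10 in NTera-2. The summed signal of the embryonal carcinoma markers was 24674 to 27614 in 2102Ep siSOX2, against 31046 to 36911 in 2102Ep control. It was 32918 to 35839 in NTera-2 siSOX2, against 33167 to 40844 in NTera-2 control. CRIPTO was called lower in both lines (-1.16 in 2102Ep and -1.02 in NTera-2), and GDF3, DPPA4 and L1TD1 fell in both by less than 2-fold. LIN28A (0.02 and 0.44) and SALL4 (0.07 and 0.17) did not fall. The list median was -0.11 in 2102Ep and -0.15 in NTera-2. Of 8 fibroblast markers 0 were called after siSOX2 (3 and 5 at an unadjusted p under 0.05), and of 7 leukocyte markers 1 (CD53) fell in 2102Ep. The summed fibroblast signal was 2480 to 2940 in 2102Ep siSOX2, against 2746 to 3089 in 2102Ep control, and without overlap 2574 to 2778 in NTera-2 siSOX2, against 3552 to 3946 in NTera-2 control, where THY1 changed by -0.86 (adjusted p = 0.000113, limma). Apart from THY1 and COL3A1 (-0.01), the fibroblast markers went up in NTera-2, where the list median was 0.25 (0.18 in 2102Ep). PDGFRB, for example, rose by 0.49 there (adjusted p = 0.0413, limma) and by 0.87 in 2102Ep (adjusted p = 0.000186). The sum thus does not describe most of the list. The part of these markers in the changes of NTS and CALB1 was not tested.

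Neurotensin is cut out of its precursor, together with neuromedin N, by prohormone convertases in secretory granules, and acts on the G protein-coupled receptors NTSR1 and NTSR2. It is known as a neuromodulator of dopamine neurons and as a hormone of enteroendocrine cells that responds to fat. Calbindin belongs to the EF-hand family, in which a helix-loop-helix holds the calcium ion. It buffers calcium in many neurons and carries it through the cells of the distal kidney tubule, and in kidney and avian intestine it is a classical vitamin D target.

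The DNA just upstream of the NTS start site is shown because the rat promoter of NTS is known to hold a cyclic AMP response element and an AP-1 site. It is the reference sequence of RefSeq (GRCh38.p14, chr12:85874045-85874294, plus strand, 250 bases ending at the base before the start site), not a sequence read from these cells. Capitals mark matches, on either strand, to TGACNTCA (the cyclic AMP response element with 1 open base), to ACAAAG (a core bound by SOX factors) and to TATATA.

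NTS: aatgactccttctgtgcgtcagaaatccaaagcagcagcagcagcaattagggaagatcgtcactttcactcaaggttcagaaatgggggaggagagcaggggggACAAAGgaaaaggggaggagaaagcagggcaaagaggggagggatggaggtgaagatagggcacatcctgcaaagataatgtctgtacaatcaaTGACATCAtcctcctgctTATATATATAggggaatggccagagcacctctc

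The single TGACNTCA match began 51 bases before the start site, and 6.87% of 35116 human promoters of the same length held such a match. The single ACAAAG match began 145 bases before it (13.7% of promoters). TATATA matched 3 times in overlap, beginning 33, 31 and 29 bases before the start (3.73% of promoters). The letters TGANTCA (AP-1, 6.57% of promoters) and CATTGT (another SOX core, 9.29%) were not in this window. A match is a description of letters and no binding was measured.

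NTS was higher with siSOX2 in 2102Ep and lower with siSOX2 in NTera-2. In 2102Ep siSOX2 the signals were 11.84, 12.10 and 12.17, against 10.56, 11.08 and 10.10 in 2102Ep control. All 3 siSOX2 arrays lay above all 3 controls, with 0.76 between the nearest arrays. In NTera-2 siSOX2 the signals were 8.80, 8.65 and 9.09, against 10.20, 10.16 and 9.97 in NTera-2 control. Here all 3 siSOX2 arrays lay below the controls, with 0.88 between the nearest arrays.

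Expressed as means, NTS stood at 12.04 ± 0.17 in 2102Ep siSOX2 and 10.58 ± 0.49 in 2102Ep control (SD, n = 3 each). The change was 1.46 ± 0.18 (SE; 95% interval 1.07 to 1.84), which is 2.74-fold. In NTera-2 it stood at 8.85 ± 0.22 with siSOX2 and 10.11 ± 0.12 in control (SD, n = 3 each). NTS thus differed by -1.26 ± 0.18 (SE; 95% interval -1.65 to -0.87), leaving 41.7% of the control signal. These contrasts chose the gene, so the values are a description and carry no test.

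CALB1 showed the reverse. In 2102Ep siSOX2 its signals were 8.80, 9.24 and 9.07, against 10.11, 10.68 and 9.75 in 2102Ep control. The siSOX2 arrays all lay below the controls, with 0.52 between the nearest arrays. In NTera-2 siSOX2 they were 8.21, 7.77 and 8.23, against 6.33, 7.26 and 6.88 in NTera-2 control. The siSOX2 arrays all lay above the controls there, with 0.50 between the nearest arrays.

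Mean CALB1 signal was 9.04 ± 0.22 in 2102Ep siSOX2 and 10.18 ± 0.47 in 2102Ep control, a difference of -1.14 ± 0.23 (SE; 95% interval -1.62 to -0.66) that left 45.3%. It was 8.07 ± 0.26 in NTera-2 siSOX2 and 6.82 ± 0.47 in NTera-2 control (SD, n = 3 each), a difference of 1.25 ± 0.23 (SE; 95% interval 0.77 to 1.73), or 2.38-fold. The 95% intervals of both CALB1 changes reach below 2-fold, as does that of the NTS change in NTera-2. Without 2102Ep control replicate 2 the change in 2102Ep was -0.89, under the 2-fold threshold, and 1 of the 2 genes, NTS, was then still called in opposite directions, a call that 0.0217% of all genes met on all 12 arrays.

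**Figure D1:**
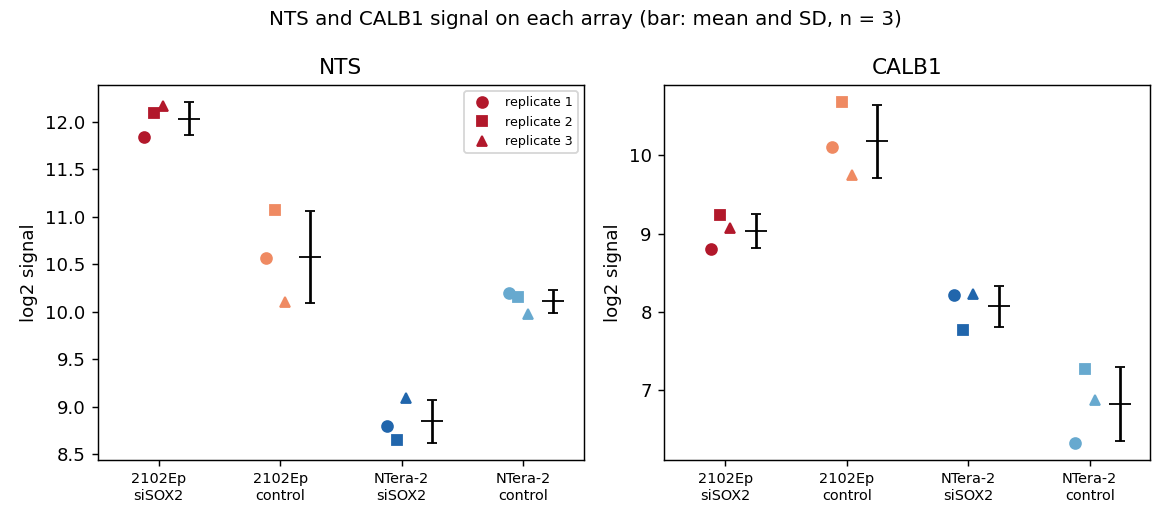
Signal of NTS (left) and CALB1 (right) on each of the 12 arrays (log2, vertical axes, which do not start at 0), by group, with a symbol for each replicate number and black bars for mean and SD (n = 3). NTS lies at 11.84 to 12.17 in 2102Ep siSOX2 and at 8.65 to 9.09 in NTera-2 siSOX2, and CALB1 at 8.80 to 9.24 and at 7.77 to 8.23.

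Placed among all genes on the same arrays, NTS lay above 98.2% of them in 2102Ep siSOX2 and above 91.8% in 2102Ep control, and above 65.5% in NTera-2 siSOX2 and 86.3% in NTera-2 control. CALB1 lay above 70.6% of genes in 2102Ep siSOX2 and 88.3% in 2102Ep control. In NTera-2 it lay above 50.3% with siSOX2 and 27.7% in control. NTera-2 control was the only one of the 4 groups in which either gene was below the median gene.

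The order of the groups differed between the genes. For NTS it was 2102Ep siSOX2, 2102Ep control, NTera-2 control and NTera-2 siSOX2, from high to low. The neighbours 2102Ep control and NTera-2 control overlapped, since the lowest array of 2102Ep control (10.10) lay under the highest of NTera-2 control (10.20). The other neighbours in that order did not overlap. For CALB1 the order was 2102Ep control, 2102Ep siSOX2, NTera-2 siSOX2 and NTera-2 control, with no overlap between neighbours.

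The distance between the lines therefore opened for NTS and closed for CALB1. With siSOX2, NTS was 3.19 ± 0.18 higher in 2102Ep than in NTera-2 (SE; 9.12-fold), and under control siRNA 0.47 ± 0.18 higher (1.39-fold). CALB1 was 0.97 ± 0.23 higher in 2102Ep than in NTera-2 with siSOX2 (SE; 1.95-fold), and 3.36 ± 0.23 higher under control siRNA (10.2-fold). Only 5 genes opened the distance between the lines by more than NTS, which ranked 6 of 18404, and CALB1 ranked 8 of 18404 for closing it. Both distances are built from the contrasts that chose the genes, so the ranks too are a description.

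**Figure D2:**
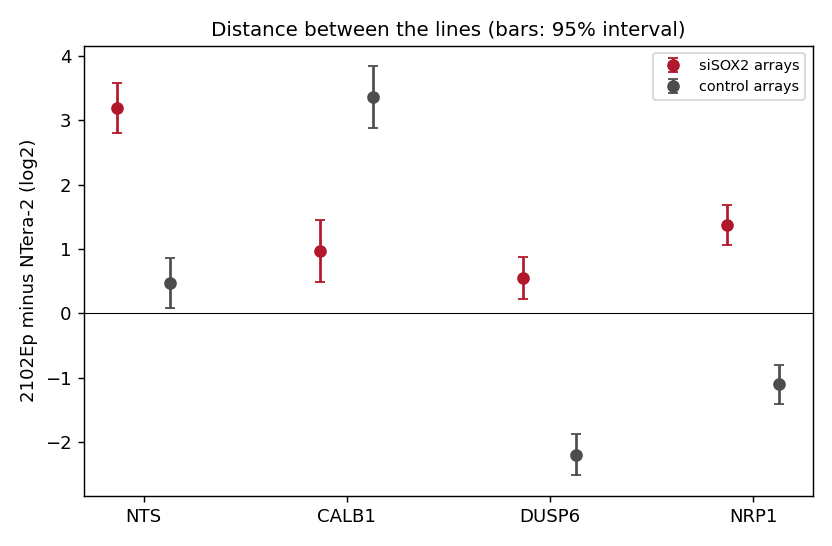
Log2 distance of the lines, taken as 2102Ep minus NTera-2 (vertical axis), for the 4 genes called in opposite directions (horizontal axis), on siSOX2 arrays (red) and on control arrays (grey), with 95% intervals from the limma fit (n = 3 arrays per group). NTS goes with a distance of 3.19 on siSOX2 arrays and 0.47 on control arrays, and CALB1 with 0.97 and 3.36.

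Averaged over both siRNAs, the lines themselves also differed in both genes. This average is orthogonal to the siSOX2 contrasts in a design of equal groups, so it did not enter the choice of the genes and was tested. NTS was 1.83 ± 0.13 higher in 2102Ep than in NTera-2 (SE; 95% interval 1.55 to 2.11; adjusted p = 2.84e-09, limma with Benjamini-Hochberg adjustment). CALB1 was 2.16 ± 0.16 higher in 2102Ep (SE; 95% interval 1.82 to 2.50; adjusted p = 4.97e-09, limma). Of all genes 7.08% were called for this average, at an adjusted p of 0.05 or less and at least 2-fold. Summed marker signals differed between the lines as well. The summed signal of the neuron and neuroendocrine markers was 2062 to 2578 in 2102Ep and 2835 to 3187 in NTera-2 over both siRNAs, with NEFM (-1.47) and DCX (-1.05) called lower in 2102Ep. That of the leukocyte markers was 2902 to 4266 in 2102Ep and 521 to 582 in NTera-2, with LCP1 (4.89) and CD53 (2.80) called higher in 2102Ep. The other leukocyte markers were not called. PTPRC, CD3E, CD14 and ITGAM differed by -0.04 to 0.15 (adjusted p of 0.104 or more, limma), and LAPTM5 by 0.40 (adjusted p = 0.00043). The part of these markers in the line average was not tested. For NTS most of this average came from the siSOX2 arrays and for CALB1 most came from the control arrays, as the distances above show.

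Both genes varied more between replicates than most genes. The pooled SD within groups was 0.29 for NTS, above that of 96.8% of all genes and of 96.8% of the 1000 genes nearest to it in signal. It was 0.37 for CALB1, above 99.2% of all genes and 99.1% of the 1000 nearest in signal. The widest groups were 2102Ep control for NTS (SD 0.49) and both control groups for CALB1 (SD 0.47 each).

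Within 2102Ep control the replicates deviated alike in both genes. Replicate 2 lay 0.50 above the group mean for NTS and 0.50 above it for CALB1. Replicate 3 lay at -0.48 for NTS and -0.43 for CALB1, and replicate 1 at -0.02 and -0.07. Of all genes 19.2% had their 2102Ep control arrays in this order. In 2102Ep siSOX2 replicate 1 was the lowest array for both genes (-0.20 and -0.23). In NTera-2 siSOX2 both genes were lowest in replicate 2 (-0.20 and -0.30) and highest in replicate 3 (0.24 and 0.16). The share of all genes with such orders was not counted in the siSOX2 groups, so nothing is read from the likeness there. The NTera-2 controls showed no such likeness, with NTS at 0.09, 0.05 and -0.14 and CALB1 at -0.49, 0.44 and 0.05 for replicates 1, 2 and 3.

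Opposite calls were rare in this experiment. In 2102Ep 1.15% of genes were called higher and 0.826% lower with siSOX2, and in NTera-2 0.31% higher and 0.348% lower. Of the 52 genes called in both lines, 48 went the same way and 4 opposite ways, the 0.0217% of all genes given above. A looser description, with the siSOX2 and control arrays of each line not overlapping and the lines moving opposite ways, held for 305 genes, or 1.66%. At an adjusted p of 0.05 or less with no fold threshold, 40 genes moved in opposite directions, 22 of them up in 2102Ep.

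The other genes called in opposite directions were DUSP6, a phosphatase that inactivates ERK, and NRP1, a co-receptor of semaphorins and VEGF. DUSP6 changed by 1.08 ± 0.15 in 2102Ep and -1.67 ± 0.15 in NTera-2 (log2, SE), and NRP1 by 1.33 ± 0.15 and -1.15 ± 0.15. CALB1 was the single gene of the 4 that was lower in 2102Ep siSOX2 and higher in NTera-2 siSOX2. By the smaller of its 2 changes NTS led the 4 (1.26), followed by NRP1 (1.15), CALB1 (1.14) and DUSP6 (1.08). Just outside the threshold of 1 stood the matrix gene TNC (0.89), CNIH3 (0.77), whose product is an auxiliary subunit of AMPA receptors, and N-cadherin, CDH2 (0.76), all 3 of them up in 2102Ep and down in NTera-2.

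**Figure D3:**
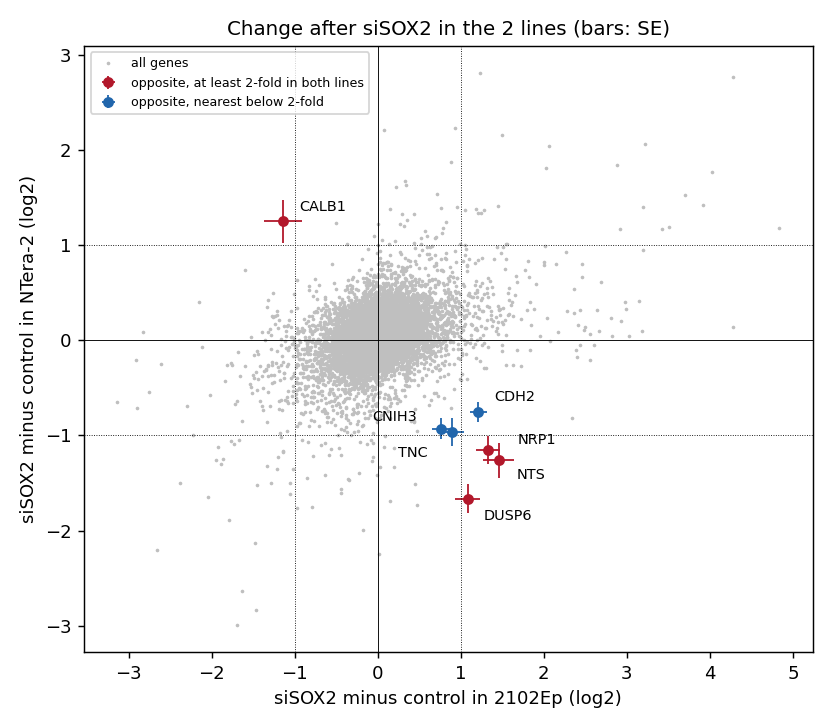
Log2 change with siSOX2 in 2102Ep (horizontal axis) and NTera-2 (vertical axis) of all 18404 genes (grey), of the 4 genes called in opposite directions (red) and of the 3 nearest below 2-fold (blue), with SE bars. Dotted lines stand at a change of 2-fold. CALB1 stands alone at upper left (-1.14 and 1.25), and NTS lies at lower right (1.46 and -1.26).

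Several genes followed NTS closely when each gene was centred on its mean within each line. Likeness was measured as the root-mean-square difference over the 12 arrays, on the log2 scale. The 5 nearest to NTS were CDH2 (0.28), DUSP6 (0.33), NRP1 (0.35), the calcium-binding protein gene S100A16 (0.35) and CNIH3 (0.36). CDH2 changed by 1.21 ± 0.11 in 2102Ep and -0.76 ± 0.11 in NTera-2, and S100A16 by 0.92 ± 0.13 and -0.52 ± 0.13 (SE). None of these 5 had the line difference of NTS, since their averages over both siRNAs (2102Ep minus NTera-2) ran from -1.48 (CNIH3) to 0.13 (NRP1).

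The 5 genes nearest to CALB1 were CNTN1 (0.36), SLCO4C1 (0.37), SYT2 (0.38), FABP3 (0.38) and PYGM (0.38). CNTN1 encodes contactin, an adhesion molecule of axons, SYT2 a calcium sensor of synaptic vesicles, and PYGM the muscle form of glycogen phosphorylase. CNTN1 changed by -0.97 ± 0.10 in 2102Ep and 0.64 ± 0.10 in NTera-2 (SE), and PYGM by -1.59 ± 0.14 and 0.74 ± 0.14. The organic anion transporter gene SLCO4C1 changed by -1.33 ± 0.23 and 0.35 ± 0.23. The line averages (2102Ep minus NTera-2) of the 5 ran from -0.90 (SYT2) and -0.56 (FABP3) through 0.31 (PYGM) and 0.44 (CNTN1) to 2.09 (SLCO4C1), against 2.16 for CALB1. NTS and CALB1 differed by 1.30 on the same measure, and by 0.51 with the sign of CALB1 turned.

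The genes beside NTS and CALB1 on their chromosomes did not share the opposite responses. RASSF9 and MGAT4C are the nearest measured genes on either side of NTS. RASSF9 changed by 0.83 ± 0.10 in 2102Ep (SE; adjusted p = 1.61e-05, limma), under 2-fold, and by 0.28 ± 0.10 in NTera-2 (adjusted p = 0.151). MGAT4C changed by 0.08 ± 0.13 and 0.21 ± 0.13. DECR1 and TMEM64, the nearest measured genes of CALB1, changed by -0.18 ± 0.12 and -0.27 ± 0.15 in 2102Ep and by 0.14 ± 0.12 and -0.07 ± 0.15 in NTera-2 (adjusted p of 0.308 or more for all 4 values, limma). Averaged over both siRNAs (2102Ep minus NTera-2), MGAT4C was lower in 2102Ep (-2.43, adjusted p = 5.64e-13, limma), against the direction of NTS, and RASSF9 differed by 0.46 (adjusted p = 3.44e-05). TMEM64 was higher in 2102Ep, as CALB1 was (1.53, adjusted p = 1.65e-09), and DECR1 differed by 0.44 (adjusted p = 2e-04).

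Around both proteins, 7 lists of 128 measured genes were followed, chosen by role. With siSOX2, 2 of the 128 rose and 2 fell in 2102Ep (1.56% each way), against 1.15% and 0.826% of all genes. In NTera-2, 2 rose (1.56%) and 1 fell (0.781%), against 0.31% and 0.348% of all genes. For the line average 4 were higher in 2102Ep (3.12%) and 5 lower (3.91%), against 7.08% of all genes either way. No list member was called in opposite directions. For several lists, counts at an unadjusted p under 0.05 are given below. They stand without the share of all genes, which was not counted, so they do not show whether a list stands out.

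The receptors of neurotensin were dim and did not pass the test. NTSR1, the main receptor of neurotensin, stood at 6.61 to 6.81 in 2102Ep siSOX2, against 6.43 to 6.88 in 2102Ep control, and at 6.81 to 7.19 in NTera-2 siSOX2, against 6.52 to 6.85 in NTera-2 control. NTSR2, which binds neurotensin less tightly, averaged 6.66 in 2102Ep siSOX2 and 6.60 in 2102Ep control, and 6.74 in NTera-2 siSOX2 and 6.59 in NTera-2 control. In each group NTSR1 lay above 23.5% to 29.7% of genes and NTSR2 above 22.8% to 26.0%. The sorting receptor SORL1, of the sortilin family, lay above 74.1% to 84.5% of genes and changed by -0.05 ± 0.15 in 2102Ep and 0.01 ± 0.15 in NTera-2 (SE). Sortilin itself, SORT1, was not analysed here. In limma 0 of the 6 genes measured in this list were called, and 1 in 2102Ep and 0 in NTera-2 had an unadjusted p under 0.05. That gene was SORCS2 (0.31, adjusted p = 0.0496, limma), under 2-fold. The list median was 0.06 in 2102Ep and 0.06 in NTera-2, over all genes -0.01 and 0.04. Of all genes 1.15% were called higher and 0.826% lower in 2102Ep, and 0.31% and 0.348% in NTera-2. Nothing is therefore read from 0 calls among 6.

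Of 20 genes for prohormone processing and granules, 1 fell in 2102Ep and 0 were called in NTera-2 (limma, 7 and 6 at an unadjusted p under 0.05). Of all genes 0.826% were called lower in 2102Ep, so 1 call among 20 is not read as a trait of the list. The gene was CADPS, which primes dense-core vesicles for release. CADPS stood at 7.06, 6.93 and 6.96 in 2102Ep siSOX2, against 8.32, 8.15 and 8.11 in 2102Ep control, a fall of 1.21 ± 0.11 (SE; adjusted p = 4.99e-07, limma). In NTera-2 it stood at 8.04, 7.90 and 8.28 with siSOX2, against 8.17, 8.17 and 8.21 in control, and those arrays overlapped (-0.11 ± 0.11, adjusted p = 0.738). The difference between the responses (2102Ep minus NTera-2) was -1.10 ± 0.16 (adjusted p = 0.000245, limma), and without NTera-2 siSOX2 replicate 3 it was -0.99, under 2-fold. CADPS thus fell in 2102Ep siSOX2, the group in which NTS was highest. The convertases PCSK1 and PCSK2 were not analysed here.

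Between the lines 5 processing genes were called, 2 higher and 3 lower in 2102Ep, among 20 measured, while 7.08% of all genes were called for the line average. Averaged over both siRNAs, QPCT, the glutaminyl cyclase that forms the blocked N-terminus of neurotensin, was 2.31 higher in 2102Ep than in NTera-2 (adjusted p = 6.57e-10, limma) and the convertase gene FURIN 1.08 higher (adjusted p = 5.31e-09). SCG5, a chaperone of the convertase PCSK2, was lower in 2102Ep (-3.11, adjusted p = 8.82e-12), CPE, the carboxypeptidase that trims cut prohormones (-1.25, adjusted p = 9.65e-11), and CADPS2, a relative of CADPS (-1.34, adjusted p = 3.62e-10). In 2102Ep siSOX2 CPE averaged 8.60, against 7.70 in 2102Ep control, a change of 0.90 ± 0.10 that stayed under 2-fold (adjusted p = 3.88e-06). With siSOX2 in NTera-2, QPCT changed by -0.78 (adjusted p = 0.0356, limma), SCG3 by -0.82 (adjusted p = 0.0106) and VGF by -0.59 (adjusted p = 0.00214). CPZ (0.53, adjusted p = 0.012) and CPE (0.36, adjusted p = 0.0395) went up there. All of these stayed under 2-fold, and QPCT changed by 0.03 in 2102Ep (adjusted p = 0.959).

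Of 6 peptidases that degrade neurotensin 0 were called with siSOX2 in limma (2 in each line at an unadjusted p under 0.05). Of all genes 1.15% were called higher and 0.826% lower in 2102Ep, and 0.31% and 0.348% in NTera-2. Nothing is therefore read from 0 calls among 6. MME (neprilysin) had the lowest change of the 6 in both lines. Its signals were 9.10, 8.71 and 8.93 in 2102Ep siSOX2, against 9.55, 9.78 and 9.41 in 2102Ep control (-0.66 ± 0.12, SE; adjusted p = 0.000934, limma). They were 7.68, 7.46 and 7.64 in NTera-2 siSOX2, against 8.05, 8.03 and 8.07 in NTera-2 control (-0.46 ± 0.12, adjusted p = 0.0365). Both MME changes pointed down and were under 2-fold. MME was 1.43 higher in 2102Ep on average over both siRNAs (adjusted p = 3.36e-10). THOP1 and NLN, a pair of metallopeptidases that cut neurotensin inside its sequence, changed by -0.09 and -0.01 in 2102Ep and by 0.01 and -0.14 in NTera-2.

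Changes of the other peptide precursors stayed under 2-fold. Of 42 such genes measured, 0 were called in either line by limma, and 7 in each line had an unadjusted p under 0.05. A count of 0 among 42 genes is near the share of all genes called (1.15% higher and 0.826% lower in 2102Ep, 0.31% and 0.348% in NTera-2), so nothing is read from it about the list. Their changes in 2102Ep ran from -0.53 (NMU, neuromedin U, adjusted p = 0.00457) to 0.78 (NPY, neuropeptide Y, adjusted p = 0.000872), and in NTera-2 from -0.54 (GAL, galanin, adjusted p = 0.0165) to 0.98 (NPFF, adjusted p = 8.6e-06), with medians of -0.09 and -0.04. NPFF changed by 0.59 in 2102Ep (adjusted p = 0.000508). The response of NPY differed between the lines by 0.81 (2102Ep minus NTera-2, adjusted p = 0.023, limma), that of NMU by -0.66 (adjusted p = 0.0242) and that of the somatostatin gene SST by -0.61 (adjusted p = 0.0365). The list of AP-1 and CREB factors, which bind the kinds of element named above, had 0 calls among 11 genes measured (limma, 3 in each line at an unadjusted p under 0.05). FOSL2 had its highest change in 2102Ep (0.88 ± 0.12, SE; adjusted p = 3.34e-05, limma), with 0.15 ± 0.12 in NTera-2 (adjusted p = 0.641), and FOS its lowest in NTera-2 (-0.54 ± 0.11, adjusted p = 0.00677), with -0.17 ± 0.11 in 2102Ep (adjusted p = 0.42). JUNB (0.64, adjusted p = 0.000788, limma) and JUND (0.42, adjusted p = 0.00674) also rose in 2102Ep, and JUN rose in NTera-2 (0.42, adjusted p = 0.0406). All of these stayed under 2-fold.

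**Figure D4:**
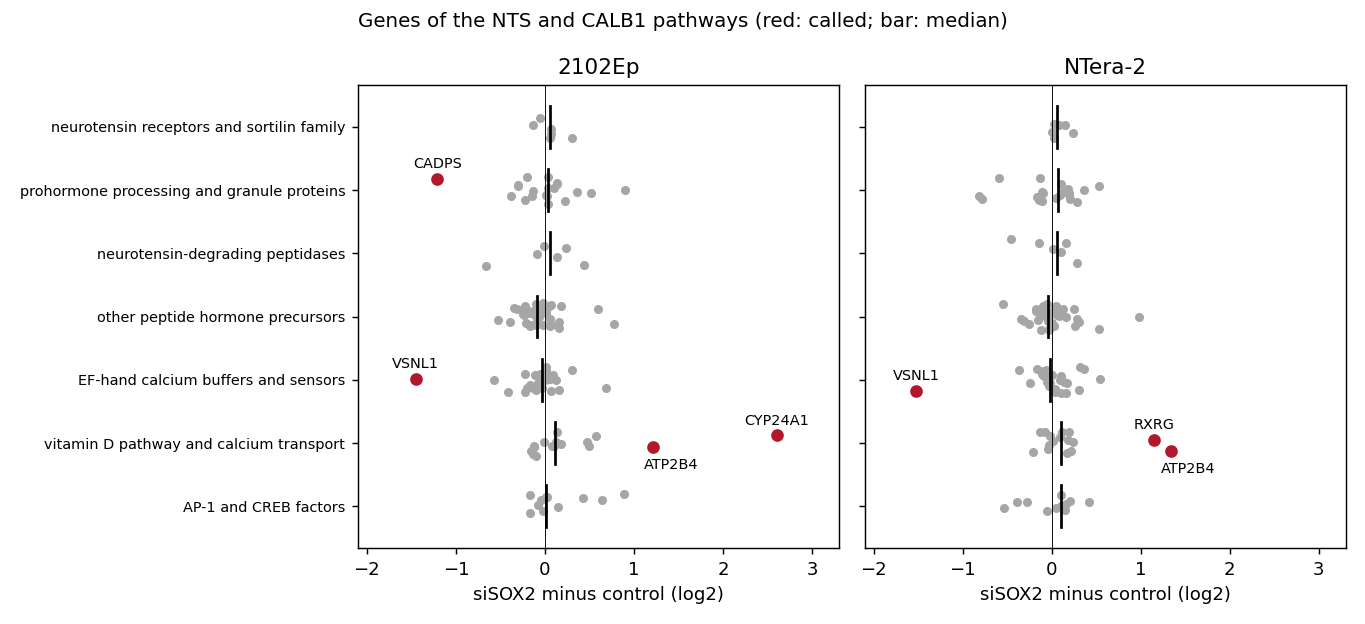
Log2 change with siSOX2 (horizontal axis) of each measured gene (points) of 7 lists around NTS and CALB1 (vertical axis). The left panel is 2102Ep and the right panel NTera-2, called genes are red and a black bar is a list's median. CYP24A1 (2.61) and CADPS (-1.21) are called in 2102Ep and not in NTera-2, while ATP2B4 and VSNL1 are called the same way in both.

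Among the relatives of calbindin 1 of 27 EF-hand genes was called with siSOX2. It fell in both lines, in which 0.826% (2102Ep) and 0.348% (NTera-2) of all genes were called lower. That gene was VSNL1, a neuronal calcium sensor. VSNL1 stood at 9.70, 10.05 and 9.53 in 2102Ep siSOX2, against 11.35, 11.69 and 10.60 in 2102Ep control (-1.45 ± 0.26, SE; adjusted p = 0.000933, limma). In NTera-2 it stood at 9.03, 8.62 and 9.40 with siSOX2, against 10.08, 11.09 and 10.44 in control (-1.52 ± 0.26, adjusted p = 0.00166). VSNL1 thus moved like CALB1 in 2102Ep and against it in NTera-2.

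Calretinin, CALB2, the closest relative of calbindin among the genes followed, averaged 7.82 in 2102Ep siSOX2 and 8.24 in 2102Ep control (-0.42 ± 0.14, adjusted p = 0.0606, limma), and 7.36 in NTera-2 siSOX2 and 7.20 in NTera-2 control (0.16 ± 0.14, adjusted p = 0.708). Parvalbumin, PVALB, changed by -0.07 ± 0.13 in 2102Ep and 0.54 ± 0.13 in NTera-2 (adjusted p = 0.814 and 0.0156), under 2-fold. S100G, the small calbindin of the intestine, changed by -0.13 ± 0.14 and 0.11 ± 0.14, and SCGN (secretagogin) by 0.07 ± 0.13 and -0.37 ± 0.13. NCS1 rose by 0.69 ± 0.10 in 2102Ep (SE; adjusted p = 0.000165, limma) and changed by 0.30 ± 0.10 in NTera-2 (adjusted p = 0.131). CETN3 changed by -0.58 ± 0.16 (adjusted p = 0.0229) and -0.06 ± 0.16 (adjusted p = 0.936). These changes too were under 2-fold. For the line average NCS1 was called lower in 2102Ep (-1.22, adjusted p = 3.88e-10, limma). The medians of the EF-hand list were -0.04 in 2102Ep and -0.02 in NTera-2.

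Of 16 genes of the vitamin D pathway and of calcium transport, 2 rose in each line. Of all genes 1.15% were called higher in 2102Ep and 0.31% in NTera-2, and the count of this list was not tested. CYP24A1, the hydroxylase that breaks down active vitamin D, stood at 7.31, 7.35 and 7.23 in 2102Ep siSOX2, against 4.38, 4.79 and 4.91 in 2102Ep control, a rise of 2.61 ± 0.14 (SE; adjusted p = 6.14e-10, limma). In NTera-2 siSOX2 it stood at 4.48, 4.68 and 4.90, against 4.91, 4.64 and 4.64 in NTera-2 control (-0.04 ± 0.14, adjusted p = 0.944). CYP24A1 lay above 3.91% of genes in 2102Ep control and above 35.2% in 2102Ep siSOX2, so its rise began among the dimmest genes. Whether the signals of the other 3 groups exceed background was not tested, so the rise, and the difference between the lines that rests on it, may be lower bounds. The responses of the lines differed by 2.65 ± 0.20 (2102Ep minus NTera-2, adjusted p = 1.68e-07).

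The vitamin D receptor gene VDR was at 6.43 to 6.53 in 2102Ep siSOX2, against 6.29 to 6.43 in 2102Ep control, and at 6.07 to 6.16 in NTera-2 siSOX2, against 5.86 to 6.38 in NTera-2 control. It was not called (adjusted p = 0.613 and 0.986). Its partner gene RXRG rose in NTera-2, to 7.43 to 7.64 with siSOX2, against 6.12 to 6.59 in control (1.15 ± 0.12, SE; adjusted p = 9.33e-06), and changed by 0.57 ± 0.12 in 2102Ep (adjusted p = 0.00286). CYP24A1, which is itself a vitamin D target, thus rose in 2102Ep, where CALB1 was lower with siSOX2, and not detectably in NTera-2, where CALB1 was higher.

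ATP2B4, a pump that moves calcium out of the cell, rose in both lines. It was at 10.43 to 10.58 in 2102Ep siSOX2, against 8.95 to 9.54 in 2102Ep control (1.21 ± 0.15, SE; adjusted p = 1.34e-05, limma), and at 10.47 to 10.83 in NTera-2 siSOX2, against 9.11 to 9.46 in NTera-2 control (1.34 ± 0.15, adjusted p = 1.61e-05). Its rise was alike in size while CALB1 moved in opposite directions, and the difference between the responses was -0.12 ± 0.21 (adjusted p = 0.907). The calcium channel gene TRPV6 changed by 0.49 ± 0.13 in 2102Ep (adjusted p = 0.015), under 2-fold, and by -0.07 ± 0.13 in NTera-2 (adjusted p = 0.875).

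**Figure D5:**
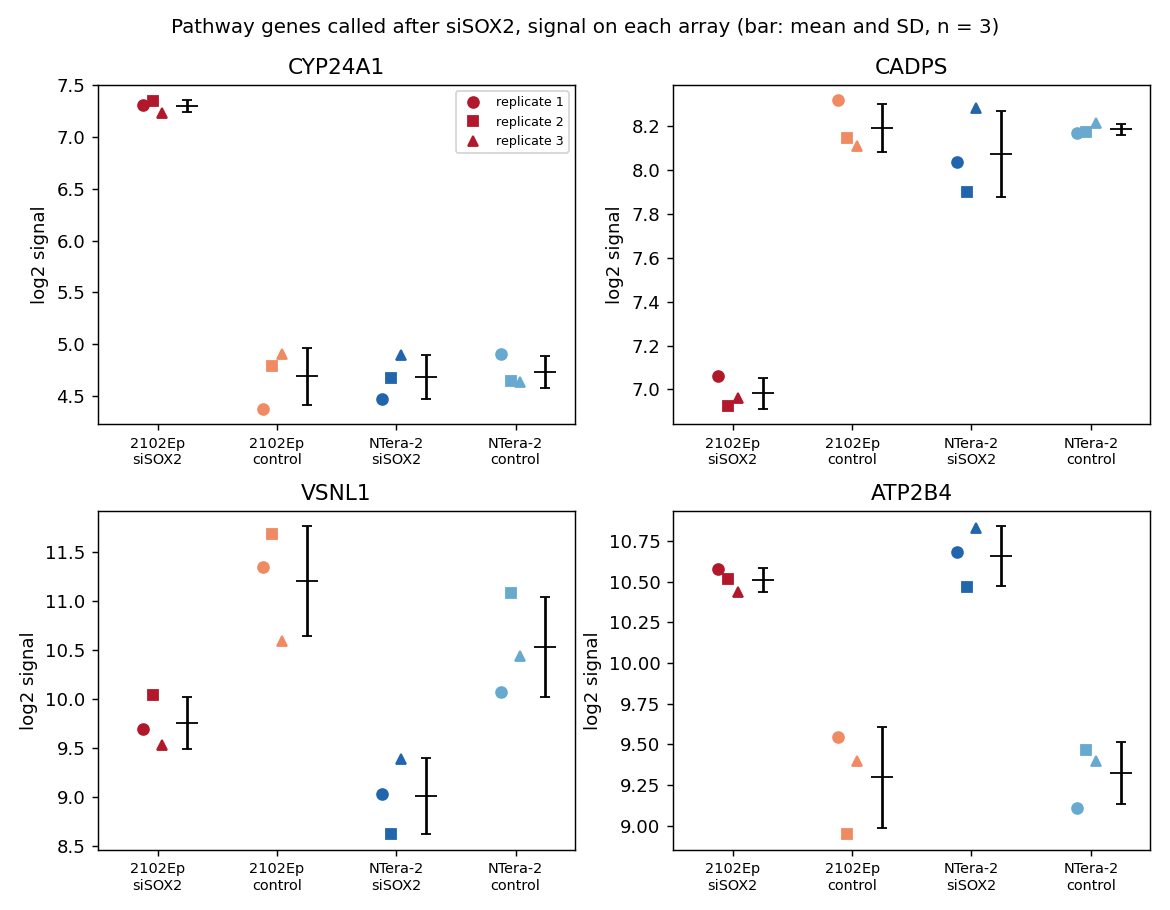
Signal (log2, vertical axes, which do not start at 0) on each array of the 4 pathway genes called in 2102Ep, by group, with a symbol for each replicate number and black bars for mean and SD (n = 3). CYP24A1 is at 7.23 to 7.35 in 2102Ep siSOX2 and at 4.38 to 4.91 in the other 3 groups, while ATP2B4 is above its controls and VSNL1 below its controls in both lines.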

How the data were processed

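RNA of 12 cultures was labelled and hybridised to Affymetrix Human Gene 1.0 ST arrays. The authors deposited 1 log2 signal for each probe set and array, made by robust multi-array average, which subtracts background, sets all arrays to 1 distribution and summarises probes by median polish, in the manufacturer's software (version not stated). The log base was taken from the range of 1.57 to 14.98. Such averaging compresses small differences of dim genes. The platform annotation gave 1 gene for 19158 of 32321 probe sets. Only these were named, with symbols of RefSeq (GRCh38.p14) for 18376 of 18404 genes, and the brightest probe set stood for a gene. RefSeq promoters came from the same build.

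All arrays were fitted with a mean per group in limma 3.58.1 (R 4.3.3), with Benjamini-Hochberg adjustment over all genes. A gene was called at an adjusted p of 0.05 or less, an unadjusted p of 0.01 or less and a change of at least 2-fold. For a single gene the smallest two-sided p of an exact permutation test is 0.1 at 3 against 3 arrays, and limma reaches lower values by sharing the spread of all genes. The labels call the replicates biological but do not say what they share, so p-values measure the spread between these arrays. On simulated data (18404 genes with independent noise, of which 100 per comparison carried a log2 change of 1.5), 100% were recovered for siSOX2 against control in 2102Ep and 100% for the line average, with 0 false calls. That change is larger than the siSOX2 changes of NTS and CALB1, and both genes vary more than most. The recovery therefore does not carry over to genes like these. Figures were drawn with matplotlib 3.10.9 (Python 3.11.15). Precision is limited by how many arrays there are.

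NTS and CALB1 and the gene lists were chosen with earlier results of these data known. Named genes were NTS, CALB1, SOX2, the genes called in opposite directions, the 3 nearest outside, list members, the 5 genes most alike to each and the nearest measured neighbours. The sequence upstream of CALB1 was not used here. The fits were repeated with the replicate number as a block, on the compared groups alone, with an intensity trend, on the brighter genes, after centring arrays on their medians, after a further quantile step, with probe sets averaged, and without each array.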

Additional observations from a re-analysis of the deposited data

Results flagged for a closer look

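Among the genes named, the response to siSOX2 (2102Ep minus NTera-2, log2) stood out as different between the lines in 2 sets. In 12 genes chosen for their response, every siSOX2 array lay beyond the controls one way in 2102Ep and the other way in NTera-2. The difference was 2.72 for NTS, 2.75 for DUSP6, 2.48 for NRP1, 1.97 for CDH2, 1.86 for TNC, 1.69 for CNIH3 and 1.44 for S100A16, and it was -2.39 for CALB1, -2.33 for PYGM, -1.73 for FABP3, -1.61 for CNTN1 and -1.39 for SYT2. It was not tested in these 12, because the response chose them. In 10 other genes it passed limma's test of the difference itself. They were chosen by role or position, apart from CD53, a marker already known to be called in 2102Ep. For CD53 the difference is therefore a description and carries no test. Both CYP24A1 (2.65, adjusted p = 1.68e-07) and CADPS (-1.10, adjusted p = 0.000245) differed by over 2-fold. The other 8 differed by less. They were NPY (0.81, adjusted p = 0.023), FOSL2 (0.73, adjusted p = 0.0116), the granule protein gene VGF (0.61, adjusted p = 0.0223), RASSF9 (0.54, adjusted p = 0.0326), CPE (0.54, adjusted p = 0.0257), SST (-0.61, adjusted p = 0.0365), NMU (-0.66, adjusted p = 0.0242) and the leukocyte marker CD53 (-0.98). The other markers were not part of this set. Among them ELAVL3 (-0.67, adjusted p = 0.025) and PDGFRA (0.67, adjusted p = 0.027) passed the same limma test.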

How the results depend on the processing

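NTS and CALB1 kept the direction of both responses under every alternative run. Without each array in turn the change of NTS ran from 1.22 to 1.70 in 2102Ep and from -1.38 to -1.16 in NTera-2, and that of CALB1 from -1.36 to -0.89 and from 1.00 to 1.47. The line average kept its call throughout (NTS 1.71 to 1.95, CALB1 2.04 to 2.27). From 3 to 5 genes were called in opposite directions. With the replicate number as a block 4 genes were called in opposite directions, and it changed no call among the results recomputed with it. The numbers share no stated culture or day, and deviations of same-numbered arrays correlated at -0.25 to 0.18, so no pairing was assumed. Among only genes at or above the median signal, 2 pathway genes were called in 2102Ep in place of 4, since CYP24A1 and CADPS are dimmer. Of NTS and CALB1 the lowest signal is that of CALB1 in NTera-2 control, above 27.7% of genes, and the receptor genes are dim as well. Other named genes are dimmer. CYP24A1 lay above 3.91% of genes and SCG5 above 13.4% in 2102Ep control, CNTN1 above 8.95% and RASSF9 above 9.89% in NTera-2 control, and QPCT above 13.9% in NTera-2 siSOX2. For such genes a small change may go undetected on 3 arrays per group.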
